A study of Beta vulgaris with 9 samples.

Results

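The genes described here encode the nuclear-made parts of the photosynthetic membranes in the chloroplast of sugar beet (Beta vulgaris). They are the antenna proteins, the subunits of photosystems I and II, the electron carriers between the photosystems, and proteins of the thylakoid, the membrane system that holds them all. They were chosen by product name alone, as every gene whose name in the transcript table holds photosystem I (or II), oxygen-evolving enhancer, chlorophyll a-b binding, psbP, plastocyanin, cytochrome b6-f or thylakoid. This gave 59 of the 24351 genes of the series, of which 6515 carry a product name, and all 59 were expressed above the minimum level for testing. Of the 59, 17 are antenna genes and 19 are core subunits, with 9 of photosystem I, 6 of photosystem II, 3 oxygen-evolving enhancer proteins and 1 of the cytochrome b6-f complex. Plastocyanin, the photosystem II 22 kDa protein, 4 genes of assembly and repair, 8 psbP domain or psbP-like genes and 9 other thylakoid genes make up the rest.

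Leaves of seedlings of the cultivar KWS0143, labelled as 5 weeks old, were collected from a hydroponic culture in Hoagland solution. Control leaves were taken at day 0, before any alkaline salt was given. Short-term leaves came from day 3, and long-term leaves from day 7, of growth in the same solution with 75 mM of mixed Na2CO3 and NaHCO3. Each group has 3 libraries, described in the study's methods as biological replicates. Because no control leaves were taken at day 3 or day 7, the alkaline salt, leaf age and the day of harvest cannot be told apart in any comparison below.

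As background, the antenna consists of proteins that bind chlorophyll a and b and pass the light energy they absorb to the photosystems. Photosystem II splits water with the help of the oxygen-evolving proteins on the inner (lumen) side of the membrane, the cytochrome b6-f complex and plastocyanin carry the electrons onward, and photosystem I passes them to ferredoxin. The chlorophyll-binding reaction centre proteins themselves are encoded in the chloroplast genome, so that the nuclear genes here encode the antenna and the smaller, mostly peripheral subunits.

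The values are FPKM, that is fragment numbers adjusted for transcript length and for the mapped total of the library, summed over the transcripts of a gene. Read counts were not analysed here, so that the depth of the libraries is unknown and their small number limits the precision. Total FPKM lay between 915464 and 1119081 per library, and the protein-coding part of it between 441417 and 472614. On the first principal component, which held 65.6% of the variance of all genes, control replicate 1 lay at 1.07, within the range of the short-term libraries (-20.3 to 3.22), while the other controls lay at -55.8 and -71.9 and the long-term libraries between 22.8 and 63.5. Of the 59 genes, 50 had their highest control value in control replicate 3. In 49 the lowest short-term value, and in 45 the lowest long-term value, was in replicate 3. How many of all genes did so was not counted. Over all genes tested, the median log2 difference from the control mean was lowest among controls in replicate 3 (-0.056). In replicate 3 it was also highest among short-term libraries (0.15) and lowest among long-term ones (0.20). Whole-leaf RNA was measured, so that fewer green cells and less RNA of these genes per cell cannot be told apart.

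As a sum, the RNA of these genes was lower in treated leaves, although single genes ranged from a control mean of 3.97 to 11783 FPKM. Together they held 15.1, 16.3 and 19.8% of all protein-coding FPKM in the 3 control libraries, 14.4, 13.2 and 10.8% in the short-term and 12.0, 10.6 and 8.11% in the long-term libraries. The 3 treated libraries of each time all lay below the 3 controls, and the long-term libraries reached lower than the short-term ones, with an overlap. The antenna genes alone held 6.90, 7.20 and 9.55% in control, 6.28, 5.39 and 4.39% in short-term and 5.23, 4.88 and 3.33% in long-term leaves. For the core subunits the shares were 7.54, 8.36 and 9.36%, then 7.63, 7.23 and 6.01%, then 6.34, 5.33 and 4.46%. Short-term replicate 1 lay within the control range for the core subunits, and no long-term library did.

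In long-term leaves 37 of the 59 genes fell, none rose and 22 did not pass the test (limma, adjusted p under 0.05 over 14491 genes). Over all genes tested, 7.23% fell and 31.1% rose in this comparison. All genes together had a median log2 change of 0.26 here, and each log2 change below is given relative to the median of its comparison, whereas the p-value tests the change before subtraction. The median of the 59 relative changes was -1.09, with a range from -3.15 to -0.02, and the mean FPKM stood at a median of 56.5% of control. In 47 of the 59 genes every long-term library lay below every control library, as it did in 9.85% of all genes, and in none did every one lie above, as in 38.0% of all genes. At an unadjusted p under 0.05, 47 were lower and none higher, beside 9.79% and 40.7% of all genes. Leaving out 1 library gave 27 genes that fell at the least, without control replicate 2, beside 654 of all genes. It gave 43 at the most, without long-term replicate 1, beside 1158 of all genes. Of the 37 calls, 26 were kept in each of these 9 fits. Median-ratio scaling turned the split of all genes to 1452 that rose and 1848 that fell, while 49 of the 59 genes fell and none rose.

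In short-term leaves none of the 59 genes passed the test in limma. The background was as low, with 0.0276% of all genes lower and 0.0759% higher. At an unadjusted p under 0.05, 30 of the 59 were lower and none higher, beside 7.10% and 15.1% of all genes. The fitted change was below 0 in 57 of the 59, beside 4854 of the 14491 genes tested. The median relative change was -0.59, against a median log2 change of all genes of 0.11. In 37 genes every short-term library lay below every control library, beside 9.90% of all genes, and in 1 gene every short-term library lay above, beside 20.8% of all genes. The call depended on how the libraries were weighted. Array quality weights gave 21 genes that fell and none that rose, beside 720 and 1474 of all genes. Without control replicate 1, 7 fell and none rose, beside 178 and 344 of all genes. The short-term mean lay between the control and the long-term mean in 50 of the 59 genes.

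**Figure D1:**
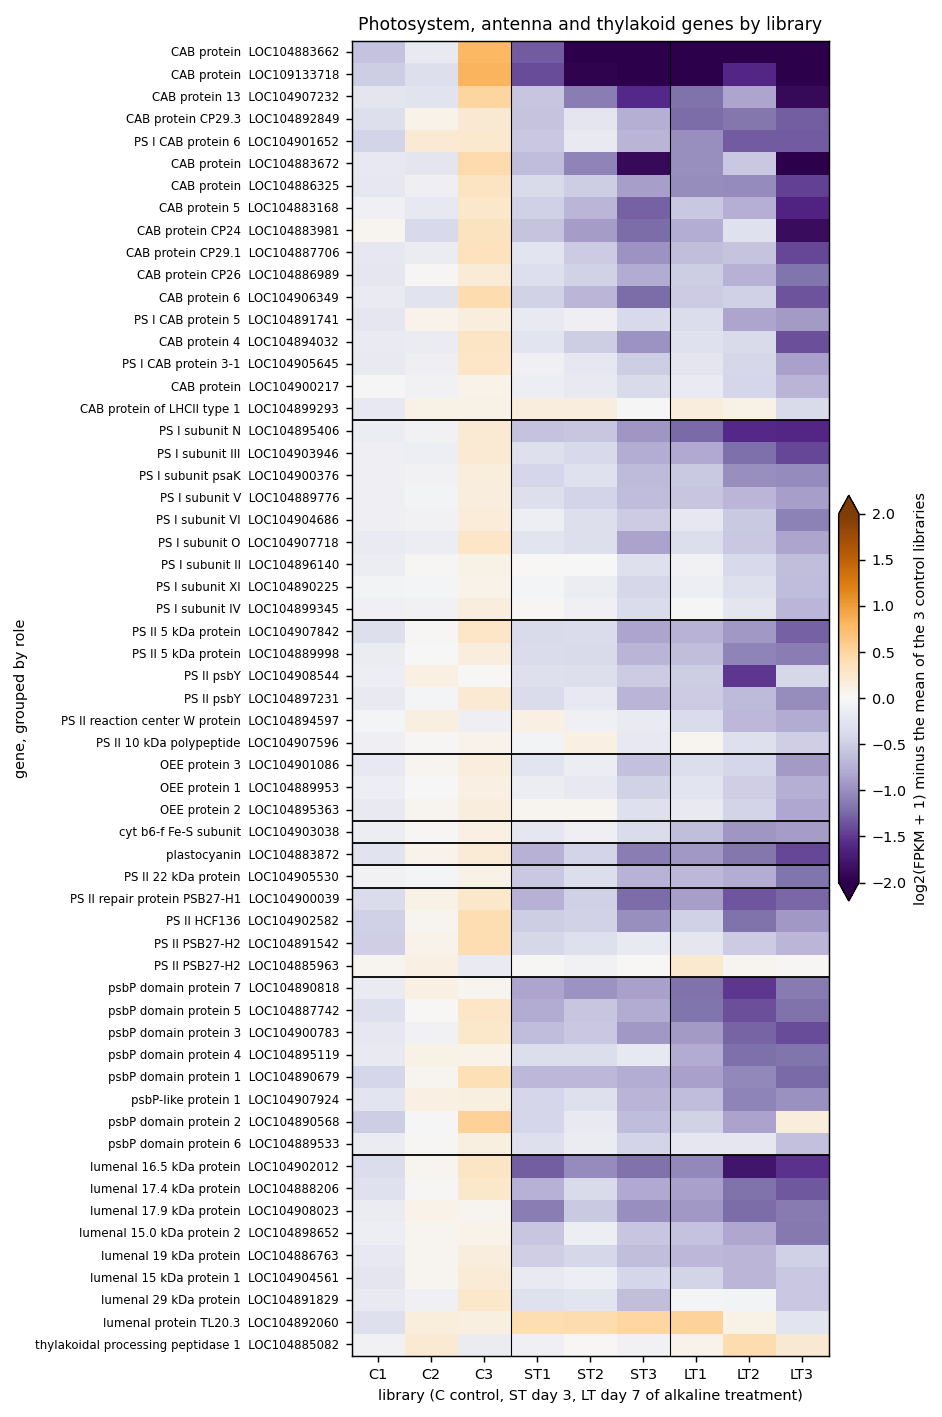
Each row is 1 of the 59 genes, grouped by role with black lines (CAB, chlorophyll a-b binding; PS, photosystem; OEE, oxygen-evolving enhancer), and each column is 1 library. Colour gives log2(FPKM + 1) minus the mean of the 3 control libraries, held at 2 in either direction, and the long-term columns are the darkest purple, with 47 genes in which all of them lay below all controls.

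Among the antenna genes, 10 of 17 fell in long-term leaves, none rose and 7 did not pass, beside 7.23% of all genes that fell and 31.1% that rose. Their median relative log2 change was -1.24. In short-term leaves none passed, and the median relative change was -0.69. At an unadjusted p under 0.05, 10 were lower there, beside 7.1% of all genes. The number that fell at day 7 was 5 without control replicate 3, beside 564 of all genes. It was 11 without long-term replicate 1, beside 1158 of all genes. All 17 short-term and all 17 long-term minima were in replicate 3 of their group. Control replicate 3 held 16 of the 17 control maxima, and such shares over all genes were not counted.

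LOC104883662 and LOC109133718, the genes with the changes furthest below 0 at both times, are antenna genes that lie close to another, LOC104883672. In order, LOC104883672 (605254 to 606244, minus strand), LOC109133718 (614748 to 615881, minus strand) and LOC104883662 (633149 to 634316, plus strand) stand within 29063 bp of the unplaced sequence NW_017567540.1, in the coordinates of the deposited table (genome build not given in the sources used here). Each has a single exon and the product name chlorophyll a-b binding protein with no type. An antenna gene elsewhere in the genome, LOC104900217 (chromosome sequence NC_025818.2, 42579047 to 42580093, minus strand), is also single-exon and carries the same name. Reads may be shared between near-identical antenna copies, so that the split among these genes is uncertain, and an undescribed gene overlaps LOC104883662 on the other strand.

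LOC104883662 measured 581, 782 and 1525 FPKM in control, 352, 143 and 70.03 in short-term and 113, 157 and 93.6 in long-term leaves. Both treated groups lay wholly below the controls, and its long-term mean was 12.6% of the control mean. The relative log2 change was -2.64 ± 0.56 (SE) at day 3 (limma adjusted p = 0.0741) and -3.15 ± 0.56 at day 7 (limma adjusted p = 0.00873). LOC109133718 measured 919, 1041 and 2302 FPKM in control, 491, 335 and 196 in short-term and 289, 428 and 166 in long-term leaves. It followed the same pattern, with no overlap between treated and control libraries, and fell by 2.50 ± 0.48 at day 7 (limma adjusted p = 0.0112).

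LOC104883672, described here after its values were seen, as was LOC109133718, measured 1469, 1423 and 2290 FPKM in control, 1074, 800 and 450 in short-term and 851, 1142 and 417 in long-term leaves. Its groups did not overlap with the controls either, but the treated libraries were widely spread, and its relative change of -1.45 ± 0.42 at day 7 did not pass (limma adjusted p = 0.0546). LOC104900217, the gene with the highest FPKM of the 59, measured 11623, 11258 and 12468 FPKM in control, 10908, 10348 and 8992 in short-term and 10517, 8765 and 7217 in long-term leaves. The treated libraries were all lower than the controls, by a small margin at day 3. Its relative change of -0.69 ± 0.17 at day 7 did not pass (limma adjusted p = 0.0694) and passed with median-ratio scaling, with equal protein-coding FPKM, without the variance trend and with array quality weights.

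The sum of LOC104883672, LOC109133718 and LOC104883662 was 2969, 3246 and 6117 FPKM in control. It was 1917, 1278 and 716 in short-term and 1253, 1727 and 676 in long-term leaves. Divided by LOC104900217 of the same library, it gave 0.255, 0.288 and 0.491 in control, 0.176, 0.124 and 0.0796 in short-term and 0.119, 0.197 and 0.0937 in long-term leaves. Control libraries were thus higher than all treated libraries in this ratio, which does not depend on the scaling of a library, and the treated times overlapped. The ratio was formed after the values were seen and carries no test.

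**Figure D2:**
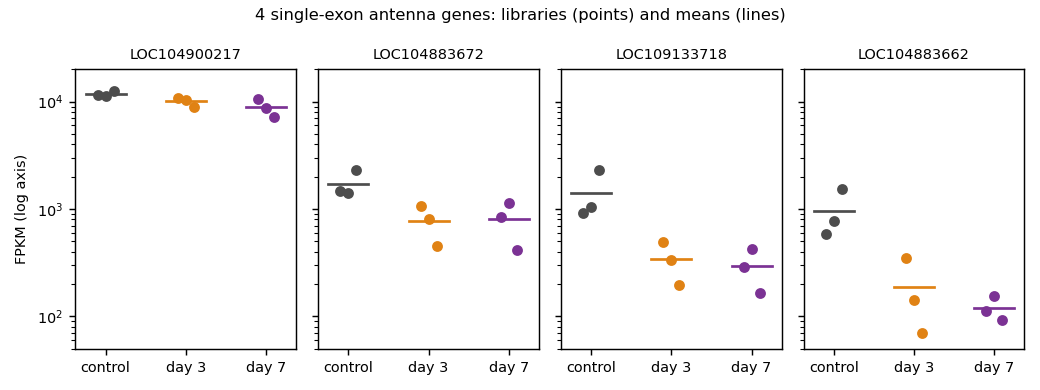
FPKM of 4 single-exon antenna genes on a log axis, by group, with points for the 3 libraries of each group and lines for their means. The gene at the left, LOC104900217, stays between 7217 and 12468 FPKM, while LOC104883662 at the right spans 70.03 to 1525 FPKM, with all treated libraries below all controls.

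The minor antenna proteins CP24, CP26 and CP29 link the main antenna trimers to the core of photosystem II. CP29.3 (LOC104892849) had the lowest p among antenna genes, with 604, 794 and 883 FPKM in control, 502, 632 and 444 in short-term and 322, 335 and 303 in long-term leaves. The long-term libraries were close together and all below the controls, whereas short-term replicate 2 overlapped with them. Its relative change at day 7 was -1.49 ± 0.18 (limma adjusted p = 0.00451). CP29.1 (LOC104887706) and CP26 (LOC104886989) also fell at day 7, by 1.15 and 1.07, though both calls were lost without control replicate 2, without control replicate 3 and without long-term replicate 2, and that of CP29.1 also without short-term replicate 2 and long-term replicate 3. CP24 (LOC104883981), at -1.24 ± 0.38, did not pass (limma adjusted p = 0.0707), and its long-term replicate 2, at 506 FPKM, lay above control replicate 2, at 473 FPKM.

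LOC104886325, another antenna gene with no type in its name, measured 1553, 1660 and 2227 FPKM in control, 1376, 1264 and 971 in short-term and 893, 877 and 649 in long-term leaves. The 3 groups did not overlap at all. It fell by 1.43 ± 0.20 at day 7 (limma adjusted p = 0.00662). The genes named chlorophyll a-b binding protein 13 (LOC104907232) and 5 (LOC104883168) fell at day 7 as well, by 1.57 and 1.24, and both calls were lost without control replicate 3 and without long-term replicate 3, and that of LOC104883168 also without 4 other libraries.

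Photosystem I has antenna proteins of its own. Photosystem I chlorophyll a/b-binding protein 6 (LOC104901652), which in Arabidopsis helps attach photosystem I to the NDH complex, measured 43.4, 69.0 and 71.2 FPKM in control, 40.3, 52.9 and 36.1 in short-term and 29.4, 23.4 and 23.2 in long-term leaves. Long-term leaves were lowest in every library, with a relative change of -1.48 ± 0.22 (limma adjusted p = 0.00713), and short-term leaves overlapped with control replicate 1. Protein 5 (LOC104891741), which shares that role in Arabidopsis, fell by 0.96 at day 7, a call that was lost without control replicate 2, control replicate 3 or long-term replicate 2. Chlorophyll a-b binding protein 4 (LOC104894032) measured 1254, 1264 and 1728 FPKM in control, 1166, 983 and 720 in short-term and 1149, 1076 and 537 in long-term leaves. All its treated libraries lay below all controls, but the change of -0.94 ± 0.31 at day 7 did not pass (limma adjusted p = 0.108). Proteins 6 (LOC104906349) and 3-1 (LOC104905645), at -1.05 ± 0.31 and -0.77 ± 0.20, did not pass either. The change nearest to 0 among the antenna genes was that of the protein of LHCII type 1 (LOC104899293), with 15.7 to 19.4 FPKM in control and 13.6 to 20.2 in long-term leaves, a low level for an antenna gene.

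**Figure D3:**
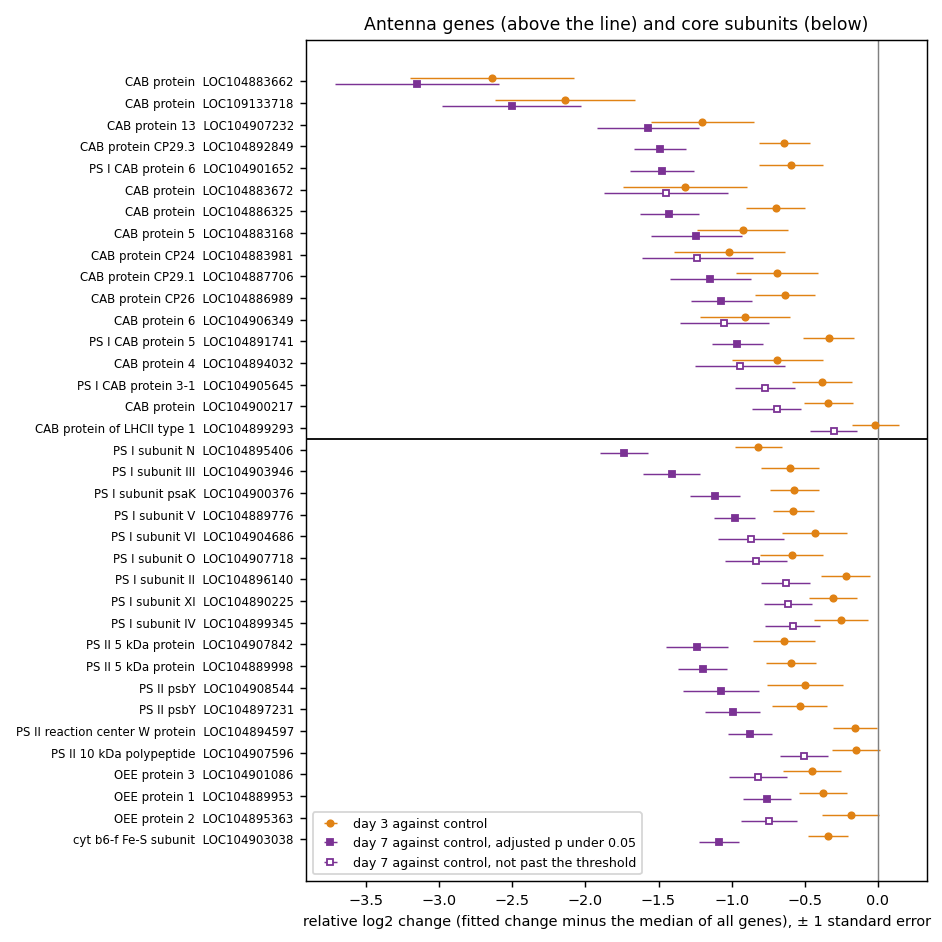
Relative log2 change (fitted change minus the median of all genes) with 1 standard error for the 17 antenna genes and, under the line, the 19 core subunits, at day 3 (orange circles) and day 7 (purple squares, filled where the adjusted p was under 0.05). Every point lies below 0, the antenna genes reach -3.15 and the core subunits -1.74, and 10 antenna and 11 core squares are filled.

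Among the core subunits, 11 of 19 fell in long-term leaves, none rose and 8 did not pass, beside 7.23% of all genes that fell and 31.1% that rose. Their median relative log2 change was -0.87. Among the fits that left out 1 library, the fewest that fell were 7, without control replicate 2, beside 654 of all genes. The most were 16, without long-term replicate 1, beside 1158 of all genes. Median-ratio scaling gave 17, beside 1848 of all genes. In short-term leaves none passed, and the median relative change was -0.45. At an unadjusted p under 0.05, 6 were lower there, beside 7.1% of all genes. All 19 fitted changes were below 0 at both times, beside 4854 of the 14491 genes tested at day 3 and 3749 at day 7. Long-term means stood between 35.9 and 85.4% of control.

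In photosystem I, 4 of 9 subunits fell at day 7, beside 7.23% of all genes. Subunit N (LOC104895406, chromosome sequence NC_025817.2, 6297171 to 6298241, plus strand) lies on the lumen side, near the place where plastocyanin docks. It measured 1314, 1372 and 1680 FPKM in control, 948, 978 and 752 in short-term and 611, 482 and 476 in long-term leaves. The groups formed 3 separate steps with no overlap, and the long-term mean was 35.9% of control. The relative change was -0.82 ± 0.16 at day 3 (limma adjusted p = 0.0797) and -1.74 ± 0.16 at day 7 (limma adjusted p = 0.00236).

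Subunit III (PsaF, LOC104903946), which forms the docking site of plastocyanin, measured 2266, 2231 and 2801 FPKM in control, 1956, 1835 and 1422 in short-term and 1380, 1044 and 899 in long-term leaves. It also fell in steps without overlap, by 1.41 ± 0.20 at day 7 (limma adjusted p = 0.00623). Subunit V (PsaG, LOC104889776), a membrane subunit beside the photosystem I antenna, measured 1380, 1425 and 1647 FPKM in control, 1191, 1090 and 945 in short-term and 994, 911 and 802 in long-term leaves. Treated libraries were all below the controls, while short-term replicate 3 lay within the long-term range, and the gene fell by 0.98 ± 0.14 at day 7 (limma adjusted p = 0.00868). PsaK (LOC104900376), the other subunit at the antenna side, fell by 1.11 at day 7.

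The other 5 subunits of photosystem I did not pass. Subunit XI (PsaL, LOC104890225), with the highest mean FPKM of the 9, measured 2414, 2443 and 2662 FPKM in control, 2447, 2276 and 1882 in short-term and 2314, 2020 and 1606 in long-term leaves. Its long-term libraries all lay below the controls, by little in replicate 1, with a relative change of -0.62 ± 0.17 (limma adjusted p = 0.116). Subunit O (LOC104907718), which in plants sits with PsaL where the antenna of photosystem II can attach, measured 1829, 1878 and 2518 FPKM in control, 1710, 1647 and 1134 in short-term and 1625, 1400 and 1150 in long-term leaves. Treated and control libraries of subunit O did not overlap, and its change of -0.84 ± 0.21 at day 7 missed the threshold (limma adjusted p = 0.0603) and passed with median-ratio scaling and with equal protein-coding FPKM. Subunits VI (PsaH, LOC104904686), II (PsaD, LOC104896140) and IV (PsaE, LOC104899345) had relative changes of -0.87, -0.63 and -0.58.

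PsaD and PsaE form the stromal side of photosystem I, where ferredoxin is reduced, opposite to subunits N and III. PsaD, described here after its values were seen, measured 1305, 1458 and 1526 FPKM in control, 1431, 1411 and 1149 in short-term and 1360, 1079 and 915 in long-term leaves. Long-term replicate 1 lay within the control range. Within each library, subunit N over PsaD was 1.01, 0.941 and 1.10 in control, 0.663, 0.693 and 0.654 in short-term and 0.450, 0.447 and 0.520 in long-term leaves. Subunit III over PsaD was 1.74, 1.53 and 1.84 in control, between 1.24 and 1.37 in short-term and 1.02, 0.967 and 0.983 in long-term leaves. Both ratios fell into 3 groups with no overlap, control replicate 1 included. They do not depend on the scaling of a library, were formed after the values were seen and carry no test. Subunits N and III had the largest falls in photosystem I at day 7 (-1.74 and -1.41), and PsaD had a smaller change (-0.63). Lower ratios thus follow from this choice of genes, and the side of the membrane was not tested.

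**Figure D4:**
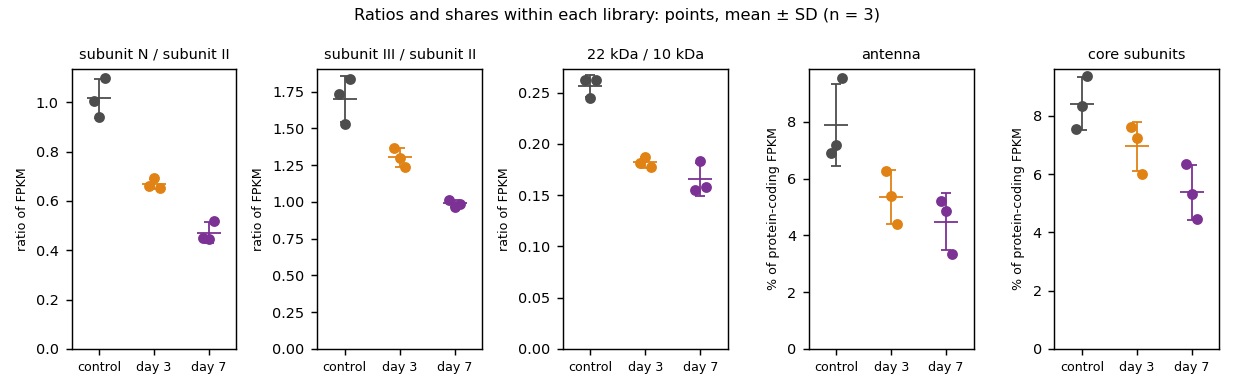
The 3 panels at the left give FPKM ratios within each library for photosystem I subunit N over subunit II, subunit III over subunit II and the photosystem II 22 kDa over the 10 kDa protein. The 2 at the right give the share of protein-coding FPKM held by the antenna genes and the core subunits, with points for libraries and bars for mean ± SD (n = 3), and subunit N over subunit II descends from 1.02 ± 0.081 in control through 0.670 ± 0.020 to 0.472 ± 0.041 without overlap.

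In photosystem II, 5 of the 6 core genes fell at day 7, beside 7.23% of all genes. The 5 kDa protein (PsbTn), a small subunit of the lumen side, has a pair of genes. LOC104889998 measured 1534, 1687 and 1889 FPKM in control, 1323, 1300 and 1038 in short-term and 1095, 810 and 781 in long-term leaves, and fell by 1.20 ± 0.17 at day 7 (limma adjusted p = 0.00724). LOC104907842 measured 314, 397 and 477 FPKM in control, 299, 302 and 218 in short-term and 236, 205 and 159 in long-term leaves, and fell by 1.24 ± 0.21 (limma adjusted p = 0.0117). In both genes the treated libraries were all lower than the controls. The genes of psbY, LOC104897231 and LOC104908544, fell by 0.99 and 1.07, and both calls were lost without control replicate 2 and without control replicate 3, the former also without long-term replicate 2 and the latter without any 1 of the short-term libraries.

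The photosystem II reaction center W protein (LOC104894597), which stabilises the supercomplex with the antenna in Arabidopsis, measured 2730, 3051 and 2613 FPKM in control, 3025, 2620 and 2493 in short-term and 2162, 1734 and 1618 in long-term leaves. Short-term leaves overlapped broadly with control, and long-term leaves lay wholly below both. The relative change was -0.16 ± 0.15 at day 3 and -0.87 ± 0.15 at day 7 (limma adjusted p = 0.0162), a call lost without control replicate 2 and without long-term replicate 2. The 10 kDa polypeptide (PsbR, LOC104907596), with the highest mean FPKM in this group, measured 3288, 3595 and 3713 FPKM in control, 3413, 3838 and 3081 in short-term and 3662, 2867 and 2515 in long-term leaves. All 3 groups overlapped, and its change of -0.50 ± 0.16 at day 7 did not pass (limma adjusted p = 0.257).

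The oxygen-evolving enhancer proteins 1, 2 and 3 (PsbO, PsbP and PsbQ) shield and stabilise the manganese cluster that splits water. Protein 1 (LOC104889953) measured 2768, 2996 and 3268 FPKM in control, 2749, 2619 and 2174 in short-term and 2518, 2138 and 1786 in long-term leaves. Its treated libraries all lay below the controls, and it fell by 0.76 ± 0.16 at day 7 (limma adjusted p = 0.0406). That call was lost in 6 of the 9 fits that left out a library, those without control replicates 2 or 3, short-term replicates 1 or 2, or long-term replicates 2 or 3. Protein 2 (LOC104895363) measured 2916, 3401 and 3655 FPKM in control, 3387, 3429 and 2666 in short-term and 2931, 2423 and 1870 in long-term leaves. Long-term replicate 1 lay within the control range, and the change of -0.74 ± 0.19 did not pass (limma adjusted p = 0.0754). Protein 3 (LOC104901086), at -0.82 ± 0.20, stood just outside the threshold (limma adjusted p = 0.0508).

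Between the photosystems, the iron-sulfur subunit of the cytochrome b6-f complex (the Rieske protein, LOC104903038) measured 1253, 1399 and 1485 FPKM in control, 1172, 1287 and 1071 in short-term and 891, 710 and 736 in long-term leaves. Long-term leaves were lower than every other library, and short-term replicate 2 lay within the control range. It fell by 1.09 ± 0.13 at day 7 (limma adjusted p = 0.00572). Plastocyanin (LOC104883872), the copper protein that carries electrons to photosystem I, measured 1214, 1529 and 1681 FPKM in control, 877, 1078 and 672 in short-term and 765, 654 and 544 in long-term leaves. All treated libraries were below all controls, with a relative change of -0.88 ± 0.21 at day 3 (limma adjusted p = 0.099) and -1.43 ± 0.21 at day 7 (limma adjusted p = 0.0072). Plastocyanin over the Rieske subunit, within a library, was 0.969 to 1.13 in control, 0.627 to 0.838 in short-term and 0.739 to 0.921 in long-term leaves. Like the other ratios, it was formed after the values were seen and carries no test.

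The photosystem II 22 kDa protein (PsbS, LOC104905530) senses the acid lumen and switches the antenna to releasing excess light energy as heat. It measured 863, 879 and 975 FPKM in control, 618, 719 and 547 in short-term and 566, 527 and 398 in long-term leaves. No treated library reached the lowest control, and the gene fell by 1.14 ± 0.16 at day 7 (limma adjusted p = 0.00765). Over PsbR in the same library it gave 0.263, 0.245 and 0.263 in control, 0.181, 0.187 and 0.177 in short-term and 0.155, 0.184 and 0.158 in long-term leaves. The control ratios were all above the treated ones, and the treated times overlapped. This ratio, too, was formed after the values were seen.

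Of the 4 genes of photosystem II assembly and repair, 2 fell at day 7, beside 7.23% of all genes. The repair protein PSB27-H1 (LOC104900039), a lumen protein bound to photosystem II complexes under repair, measured 113, 156 and 175 FPKM in control, 86.3, 104 and 61.6 in short-term and 78.6, 56.3 and 60.6 in long-term leaves. It was lower in every treated than in every control library, and fell by 1.42 ± 0.23 (limma adjusted p = 0.00957). HCF136 (LOC104902582), needed to assemble the reaction centre, measured 37.0, 53.4 and 69.4 FPKM in control, 36.0, 37.4 and 25.4 in short-term and 36.7, 21.9 and 26.7 in long-term leaves. Control replicate 1 stood close to the treated libraries, and the fall of 1.13 ± 0.27 (limma adjusted p = 0.0341) was lost without control replicates 2 or 3 or long-term replicates 2 or 3. The PSB27-H2 genes (LOC104891542 and LOC104885963), of D1 protein processing, lay between 3.00 and 7.68 FPKM and did not pass.

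The psbP domain and psbP-like proteins are relatives of PsbP in the lumen, several of which act in photosystem assembly or repair in Arabidopsis. At day 7, 6 of the 8 fell and none rose, beside 7.23% and 31.1% of all genes. Domain protein 7 (LOC104890818) had the lowest p of all 59 genes, with 34.1, 41.5 and 39.6 FPKM in control, 21.0, 19.1 and 20.5 in short-term and 16.2, 12.8 and 16.9 in long-term leaves. The 3 groups formed separate steps, with changes of -0.9998 ± 0.13 at day 3 (limma adjusted p = 0.0579) and -1.54 ± 0.13 at day 7 (limma adjusted p = 0.00186). Domain protein 5 (LOC104887742) measured 10.7, 13.6 and 16.7 FPKM in control, 7.34, 8.72 and 7.40 in short-term and 5.39, 4.54 and 5.31 in long-term leaves, likewise without overlap. It fell by 1.51 ± 0.16 at day 7 (limma adjusted p = 0.00367).

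Domain protein 4 (LOC104895119) measured 30.8, 37.6 and 37.4 FPKM in control, 27.7, 27.6 and 30.6 in short-term and 20.0, 14.7 and 15.0 in long-term leaves. Its short-term libraries lay just under the lowest control, and the long-term libraries formed a lower step, with a fall of 1.31 ± 0.14 at day 7 (limma adjusted p = 0.00427). PsbP-like protein 1 (LOC104907924), of photosystem II repair in Arabidopsis, measured 78.7, 103 and 104 FPKM in control, 70.0, 76.4 and 57.1 in short-term and 60.0, 44.2 and 47.3 in long-term leaves. All treated libraries were below all controls, and the gene fell by 1.16 ± 0.17 (limma adjusted p = 0.00813). Domain proteins 3 (LOC104900783) and 1 (LOC104890679) fell by 1.46 and 1.31, and proteins 2 (LOC104890568) and 6 (LOC104889533) did not pass, at -0.64 and -0.62.

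Of the other 9 thylakoid genes, 6 fell at day 7 and none rose, beside 7.23% and 31.1% of all genes. The lumenal 16.5 kDa protein (LOC104902012), of photosystem II repair in Arabidopsis, measured 70.5, 91.8 and 112 FPKM in control, 35.7, 43.5 and 38.8 in short-term and 43.4, 25.6 and 30.1 in long-term leaves. The treated times overlapped far below the controls, with changes of -1.29 ± 0.22 at day 3 (limma adjusted p = 0.0621) and -1.71 ± 0.22 at day 7 (limma adjusted p = 0.00494). The 17.9 kDa protein (LOC104908023) measured 20.8, 24.5 and 24.0 FPKM in control, 10.1, 15.6 and 11.1 in short-term and 11.6, 9.33 and 9.93 in long-term leaves, and fell by 1.36 ± 0.16 (limma adjusted p = 0.00469). The 17.4 kDa protein (LOC104888206) measured 68.7, 85.3 and 102 FPKM in control, 49.9, 64.2 and 47.7 in short-term and 45.7, 36.2 and 32.6 in long-term leaves, and fell by 1.40 ± 0.19 (limma adjusted p = 0.00589). In both, no treated library reached the control range. The 15.0 kDa protein 2 (LOC104898652) and the 19 kDa protein (LOC104886763) fell as well, by 1.12 and 0.88.

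The 15 kDa protein 1 (LOC104904561), with the highest mean FPKM in this group, measured 72.6, 88.1 and 98.2 FPKM in control, 75.3, 79.2 and 63.4 in short-term and 62.5, 52.4 and 58.0 in long-term leaves. Long-term leaves lay below both other groups, and the fall of 0.83 ± 0.14 at day 7 (limma adjusted p = 0.018) was lost without control replicate 2, control replicate 3 or long-term replicate 2. TL20.3 (LOC104892060), a lumen protein, was the 1 gene of the 59 with every short-term library above every control, at 30.7, 43.1 and 42.1 FPKM in control, 51.4, 51.7 and 54.2 in short-term and 55.3, 41.1 and 31.9 in long-term leaves. Its long-term libraries spread across the control range, and neither change passed, at 0.33 ± 0.20 at day 3 (limma adjusted p = 0.235) and -0.14 ± 0.20 at day 7. Thylakoidal processing peptidase 1 (LOC104885082), which cleaves the targeting signals of lumen proteins, measured 7.12, 8.78 and 6.68 FPKM in control, 7.03, 7.49 and 7.04 in short-term and 7.90, 10.4 and 8.93 in long-term leaves. Both treated groups overlapped with control, while every long-term library lay above every short-term one, and its relative change of -0.02 ± 0.13 at day 7 was the nearest to 0 of the 59 (limma adjusted p = 0.164). The 29 kDa protein (LOC104891829), at -0.48, did not pass either.

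Between long-term and short-term leaves none of the 59 genes passed the test in limma, and 0% of all genes did in either direction. At an unadjusted p under 0.05, 18 of the 59 were lower in long-term leaves and none higher, beside 5.34% and 22.4% of all genes. The fitted change was below 0 in 53 of the 59, beside 4443 of the 14491 genes tested. The median relative change was -0.43, against a median of all genes of 0.15. In 14 genes every long-term library lay below every short-term one, beside 6.57% of all genes, and in 2 genes above, beside 27.3%. The medians were -0.37 for the antenna genes, of which 3 had no overlap and were lower, and -0.46 for the core subunits, of which 4 did. With array quality weights 1 of the 59 rose and 17 fell, beside 3062 and 728 of all genes. Without long-term replicate 1, 6 fell and none rose, beside 269 and 1001 of all genes. The relative change furthest below 0 was that of subunit N of photosystem I, at -0.92 ± 0.16 (limma adjusted p = 0.0822), and the highest was that of thylakoidal processing peptidase 1, at 0.15 ± 0.13 (limma adjusted p = 0.183).

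The size of the change was set beside the level of a gene. Across the 59 genes, which share the same libraries, Spearman's rho between the log2 control mean and the relative change was 0.05 at day 7 and 0.06 at day 3. By control mean, 15 of 28 genes over 1000 FPKM fell at day 7, and 7 of 8 between 100 and 1000 FPKM. Lower down, 15 of 19 fell between 10 and 100 FPKM and 0 of 4 under 10 FPKM, where the scale of log2(FPKM + 1) understates change. Over all levels 7.23% of all genes fell. Their shares within these bands were not computed, so that the bands cannot be compared by these counts. The genes are spread over the genome, with 43 on 9 chromosome sequences and 16 on 14 unplaced sequences. Transcripts were short, at a median of 1055 nucleotides, 13 genes had a single exon, and 9 had more than 1 transcript.

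Other genes of thylakoid pathways were listed by product name, with earlier results of these data known. The list took the FTSH and Do-like protease families whole, and so holds members that in Arabidopsis lie outside the chloroplast, such as FTSH 4 of the mitochondrion. Of 59 such genes 57 were tested. At day 7, 3 rose and 24 fell, beside 31.1% and 7.23% of all genes, with a median relative log2 change of -0.60. In short-term leaves none passed, and the median was -0.18. For the NDH complex, which returns electrons from ferredoxin to the plastoquinone pool, 6 of 8 fell, with the lumenal subunit 4 (LOC104895714) at -1.50 ± 0.20 (limma adjusted p = 0.00549). Of the 3 genes listed for the other cyclic route 2 fell, among them PGR5 (LOC104887881), by 0.98, and PGR5-like protein 1A (LOC104892379), at -0.265, did not pass. SRP43 (LOC104887683), which guides antenna proteins to the thylakoid, measured 14.1, 18.8 and 20.3 FPKM in control, 11.6, 12.9 and 11.0 in short-term and 7.82, 4.69 and 6.16 in long-term leaves, and fell by 1.64 ± 0.18 (limma adjusted p = 0.0043). GLK1 (LOC104903451), a transcription factor that in Arabidopsis activates antenna genes, measured 14.04, 20.8 and 17.6 FPKM in control, 13.5, 10.4 and 11.8 in short-term and 9.20, 6.95 and 9.10 in long-term leaves, and fell by 1.23 ± 0.17 (limma adjusted p = 0.00663). The controls lay above all treated libraries in both. Of the 4 genes listed with SRP43 for antenna insertion, 2 fell, and the ALBINO3-like proteins 1 (LOC104897230) and 3 (LOC104890788) did not pass, at -0.33 and -0.18. The 3 genes of the whole list that rose were stress enhanced protein 2 (LOC104896087), at 0.65, the protease FTSH 4 (LOC104886622), at 0.20, and the putative protease Do-like 14 (LOC104890298), at 0.54.

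The label of the tissue as leaf was not tested, since no gene of another tissue was chosen for comparison. As a gene of green tissue, the small chain of Rubisco, the enzyme that fixes CO2, was measured. Its chain 6 (LOC104886961) measured 4569, 5210 and 6151 FPKM in control, 3853, 3535 and 2963 in short-term and 3058, 2376 and 2001 in long-term leaves, and fell by 1.37 ± 0.19 at day 7 (limma adjusted p = 0.00669). Genes of chlorophyll loss were measured beside it, since the antenna binds chlorophyll. Pheophorbide a oxygenase (LOC104902984), which opens the chlorophyll ring, measured 23.5, 17.2 and 14.9 FPKM in control, 31.1, 34.1 and 33.4 in short-term and 40.4, 49.1 and 42.9 in long-term leaves. It was higher in every treated library and rose by 0.97 ± 0.16 at day 7 (limma adjusted p = 0.00407). STAY-GREEN 1 (LOC104892367), which removes magnesium from chlorophyll, rose by 1.16 and STAY-GREEN LIKE (LOC104894688) fell by 0.77. Their part in the lower antenna RNA was not tested.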

How the data were processed

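Leaf RNA of 9 libraries was measured after removal of ribosomal RNA, with kits that keep the strand. Alignment with HISAT2 and assembly with StringTie 1.3.1 were done by the authors, who deposited 1 FPKM value per transcript and library, 43133 entries in all. Their methods name Cuffdiff for FPKM, with a genome build not given in the sources used here. Deposited tables also give product names (up to the first comma), positions, exon numbers and lengths.

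FPKM was summed per gene (74 transcript entries for the 59 genes, of which 2 repeat an identifier). Genes with a group mean over 0.5 FPKM were fitted as log2(FPKM + 1) in limma 3.58.1 (R 4.3.3), with 1 mean per group over all 9 libraries, a variance trend and Benjamini-Hochberg adjustment over all genes at 0.05. Both treated groups were compared with the same 3 controls. Tables were made with Python 3.11.15, numpy 2.4.6, pandas 2.3.3, SciPy 1.17.1 and matplotlib 3.10.9. Data were simulated for the long-term comparison over 14491 genes, with all genes other than those planted left unchanged. Of 100 genes planted at a log2 change of -1, 61 were called, and of 100 at -0.5, 6 were. Because 5552 genes were called in the measured comparison, its p cutoff was looser. These shares therefore do not give how many such changes it would call.

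The members, roles and lists were chosen with earlier results of these data known. Values in every library are given for all members past the threshold at day 3 (none), up to 3 members of each role with the lowest p among those past it at day 7, the member with the highest mean in each role, 3 genes the paper names, and the largest rise and fall of each comparison. These are 32 genes, and 3 more (LOC104883672, LOC109133718 and PsaD) were added after their values were seen. Alternatives changed the pseudocount (0.1 or 0.5 FPKM), the filter, the scaling, the groups fitted, the variance model, a replicate block, the transcripts summed and the libraries left out. Of the 59 genes 56 are in the RefSeq gene table given for reference, which was used for nothing else. Protein and promoter sequences were not analysed here.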

Additional observations from a re-analysis of the deposited data

How the results depend on the processing

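No named gene that passed the test changed direction under an alternative, but median-ratio scaling turned the balance of all genes at day 7 from 4505 that rose and 1047 that fell to 1452 and 1848. The median changes of the 59 genes, the antenna genes and the core subunits moved by less than their spread in all 198 checks. This does not extend to the numbers of genes called, which varied as given below. For short-term against control, the count over all genes (15) became 9 with no filter, 43 with only the 2 groups compared and 2194 with array quality weights, and 0 to 522 when 1 library was left out. The 59 genes gave 1 call with the same total FPKM, beside 12 of all genes, and 1 with only the 2 groups. They gave 21 with array quality weights and 0 to 7 with a library left out. Antenna genes gave 4 and core subunits 4 with array quality weights, and 0 to 1 and 0 with a library left out.

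For long-term against control, all genes gave 5552 calls, 3300 with median-ratio scaling, 3290 with only the 2 groups and 2323 to 5782 with a library left out. The 59 genes gave 27 to 43, the antenna genes 5 to 11 and the core subunits 7 to 16 with a library left out, and 17 core subunits fell with median-ratio scaling. Of the 37 calls, 30 were kept in all other alternatives.

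For long-term against short-term, all genes gave 0 calls, 1852 with the same total FPKM, 4 with only the 2 groups, 2 without the trend, 3790 with array quality weights, 1 with the highest transcript only, 16 with scaling by the protein-coding FPKM of all other genes (chosen after seeing the data) and 0 to 1270 with a library left out. The 59 genes gave 2 with the same total FPKM, 18 with array quality weights (1 rose and 17 fell) and 0 to 6 with a library left out, the antenna genes 3 with array quality weights and 0 to 1, and the core subunits 1, 7 and 0 to 4. The causes were not tested.

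The deviations of same-numbered libraries correlated between -0.62 and 0.35, below 0 between control and either treated group and above 0 between the treated groups. Whether replicate numbers pair the samples cannot be decided from these values, with 3 libraries per group. With the replicate block, 1 gene was called over all genes in short-term against control, 3246 in long-term against control (30 of the 59) and 3 in long-term against short-term. Depth is unknown, and genes near the filter cannot show small changes.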

Other observations

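RNA on the strand opposite to some of these genes, at a low level, stood apart in single libraries. The deposited table holds 12 antisense lncRNAs that overlap 8 of the 59 genes. Over the 6 genes above 100 FPKM, with 7 lncRNAs, the antisense FPKM per 1000 FPKM of the genes was 0.235, 0.189 and 1.08 in control, 0.263, 0.777 and 0.219 in short-term and 0.195, 0.228 and 0.148 in long-term leaves. Control replicate 3 and short-term replicate 2 were above all other libraries, and the remaining libraries of the 3 groups overlapped. Of the 6 genes, 5 had their highest antisense share in control replicate 3, and LOC104900376 had it in long-term replicate 2. None of the 7 lncRNAs exceeded 6.36 FPKM in a library. Whether antisense RNA of other genes was also high in control replicate 3 and short-term replicate 2 was not tested. For plastocyanin (LOC104883872) the antisense lncRNA stood at 2.50 per 1000 in control replicate 3 and 1.44 in short-term replicate 2, against 0.0938 to 0.481 in the other libraries. Control replicate 3 was also the library with the highest FPKM in 49 of the 59 genes, a share not counted over all genes.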
